A study of Homo sapiens and Mus musculus with 56 samples.

Results

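The blood and lymph vessels of a human tumour grown in a mouse are made by the mouse, and their cells can be followed by mouse endothelial genes. A list of 38 mouse endothelial genes was read on mouse arrays of glioblastoma grafts. It held 17 pan-endothelial genes, 6 transcription factors, 5 junction genes, 2 tip cell genes, 5 lymphatic and sinusoidal genes and 3 genes of venules and activated endothelium. The members were given as a list of gene names, chosen with earlier results of these data known. A probe set naming a single gene was found for 37 of the 38, among 19938 mouse genes in all. Selp was not analysed here. On the 28 mouse arrays 29 of the 37 measured members had a mean level above 6.50, the median of the means of all genes, and the 8 dimmer ones were Clec14a, Gja5, Esm1, Kcne3, Prox1, Mmrn1, Stab2 and Ackr1.

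The series belongs to a study of therapy aimed at MET, the receptor of hepatocyte growth factor. Cells of the human glioblastoma lines U87M2, U118, SF295, U251M2 and DBM2 were inoculated under the skin of the flank of nude mice, 500000 cells each, and the mice received V-4084, an inhibitor of MET kinase activity per the labels, at 30 mg/kg for 7 days, or over the same time the vehicle alone, MC 400 at 0.5% plus Tween 80 at 0.05%. Each line and treatment had 3 mouse arrays, except 2 with V-4084 for U251M2 and 2 with vehicle for SF295. Another 28 arrays, of the human platform, are labelled as cultured cells of the same lines kept for 7 days with V-4084 or with DMSO. Nude mice lack mature T cells, the labels give brain tumour as the tissue although the grafts grew in the flank, and no age of the mice is given in the sources used. Nothing in the labels says that repeats came from separate animals, so the p-values measure only the spread between arrays, which may be technical.

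Endothelial cells line every vessel and hold together through VE-cadherin (Cdh5) and claudin-5 (Cldn5). In a growing vessel a leading tip cell, guided by vascular endothelial growth factor (VEGF), carries genes such as Esm1, Kcne3, Apln and Angpt2, while Notch signalling between neighbours restrains tip behaviour and favours arterial fate. Lymphatic vessels are set apart by the transcription factor Prox1 and the hyaluronan receptor Lyve1, and ETS and SOX factors keep the endothelial programme on. In a whole tumour fewer endothelial cells and less RNA per cell cannot be told apart.

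Values are the authors' deposited log2 intensities of probe sets, called levels here. A level is not comparable between genes. The effect of V-4084 is the V-4084 mean minus the vehicle mean (log2) from limma with its standard error (SE), and a gene was called at a Benjamini-Hochberg adjusted p under 0.05 over all 19938 genes. Array medians ran from 6.11 to 6.31, and the array nearest to each of the 28 was of its own line. Some arrays stood apart in endothelial genes within their group. The second U118 vehicle array was the highest of its 3 for 25 of the 37 members (31.6% of all genes), and the third U87M2 V-4084 array was the lowest of its 3 for 26 members (33.9% of all genes). Without the third U87M2 V-4084 array the 8 members called in U87M2 were the same 8.

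**Figure D1:**
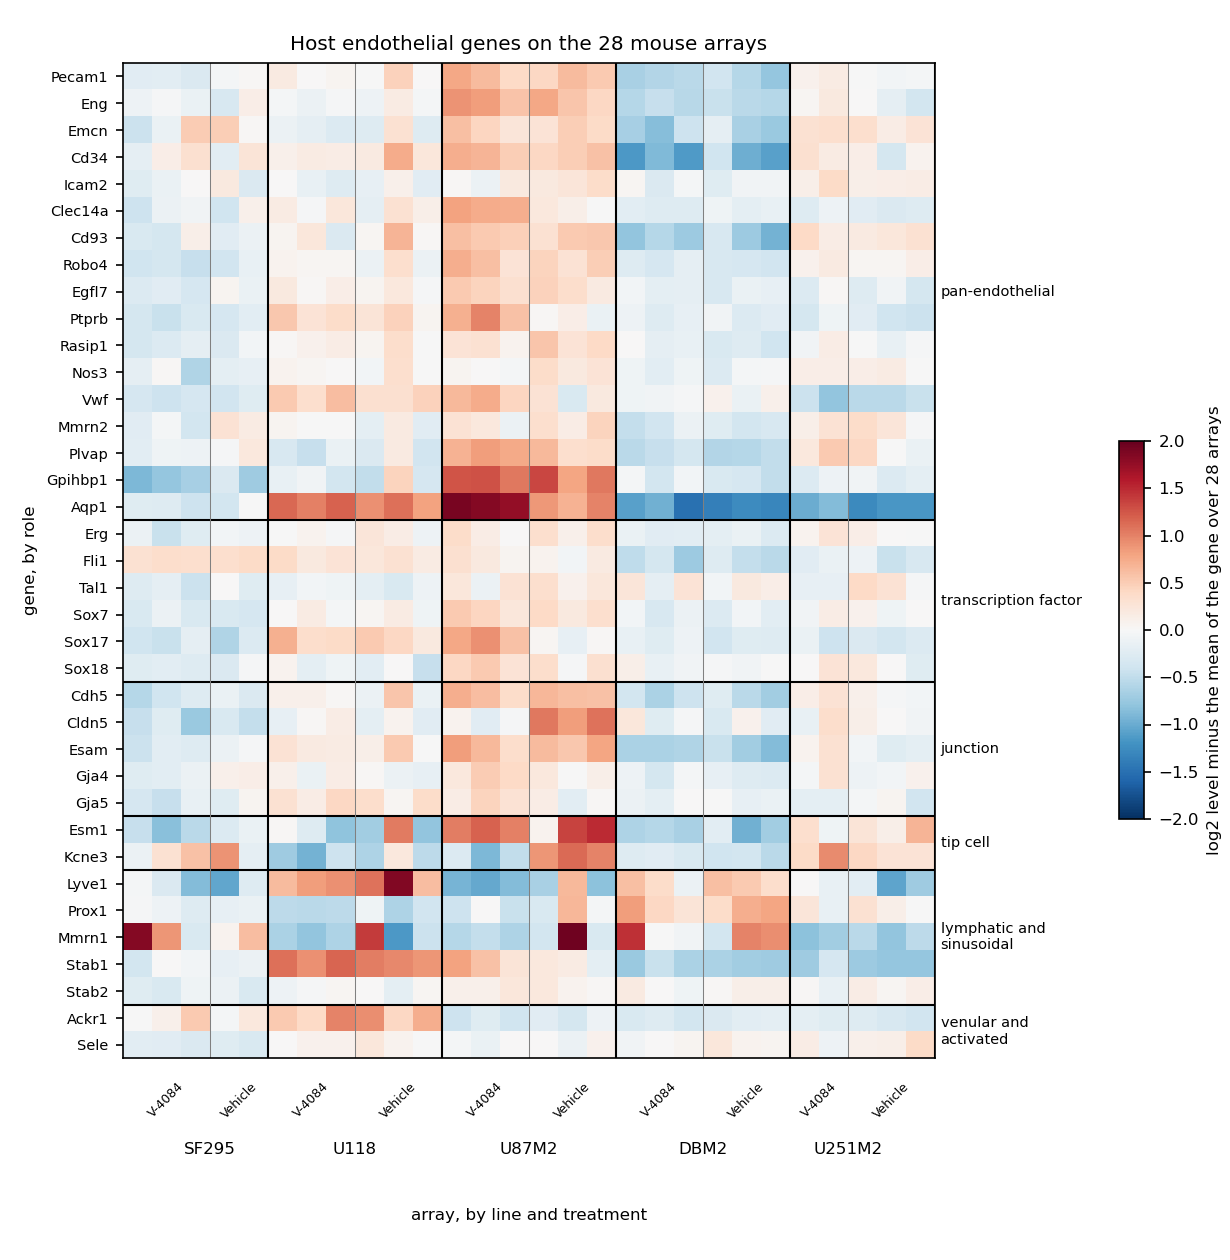
Level of each of the 37 measured members (rows, grouped by role) on the 28 mouse arrays (columns, by line, V-4084 left of vehicle), shown as the log2 level minus the gene's mean over all arrays; colours stop at 2 above and below. The U87M2 columns are mostly red and the DBM2 columns mostly blue for the pan-endothelial genes, and within U87M2 the Aqp1, Sox17, Cldn5 and Kcne3 rows change colour between treatments.

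In U87M2 tumours V-4084 changed a subset of the endothelial genes. Pecam1 and Cdh5, used here as anchor genes, differed by less than 0.1 and were not called. Called higher were Aqp1, Sox17, Ptprb, Clec14a, Vwf and Stab1, and called lower were Cldn5 and Kcne3. These are 8 of the 37 members, against 3.72% of all genes called in U87M2 (2.49% higher and 1.22% lower). Because the list was chosen with earlier results of these data known, these shares are not an independent test of it. The median effect of the 37 was 0.08, against a median of 0.0007 over all genes. The V-4084 arrays lay wholly above the vehicle arrays for 8 members (10.1% of all genes) and wholly below for 5 (8.4% of all genes).

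Of the 17 pan-endothelial genes 4 rose and 13 were not called in U87M2. Aqp1 encodes aquaporin-1, a water channel of capillary endothelium and red cells. Its levels were 10.59, 10.52 and 10.45 with V-4084, against 9.55, 9.37 and 9.68 with vehicle. Every V-4084 array was above every vehicle array, and the difference was 0.98 (SE 0.12, 1.98-fold, limma adjusted p = 2.83e-05). Ptprb encodes VE-PTP, a phosphatase that acts on the angiopoietin receptor Tie2 and on VE-cadherin. It had levels of 9.07, 9.35 and 8.94 with V-4084 and 8.38, 8.49 and 8.22 with vehicle. These arrays did not overlap either, at a difference of 0.76 (SE 0.11, 1.69-fold, adjusted p = 0.000216).

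Clec14a, a C-type lectin of tumour endothelium, and Vwf, the von Willebrand factor stored in Weibel-Palade bodies, rose less. Clec14a stood at 7.18, 7.12 and 7.10 with V-4084, against 6.58, 6.49 and 6.37 with vehicle, a tight separation of 0.65 (SE 0.12, 1.57-fold, adjusted p = 0.00168). Vwf stood at 7.96, 8.05 and 7.74 with V-4084, against 7.60, 7.00 and 7.50 with vehicle. The second vehicle array was the lowest for Vwf, the groups did not overlap, and the difference was 0.55 (SE 0.12, 1.46-fold, adjusted p = 0.00965). Without that vehicle array the Vwf difference was 0.36 and its call was lost (adjusted p = 0.0728), and without the second V-4084 array the difference was 0.48 and the call was lost too (adjusted p = 0.0681).

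The anchor genes gave other values. Pecam1, the platelet and endothelial adhesion molecule CD31, had 9.33, 9.19 and 8.96 with V-4084 and 8.98, 9.19 and 9.09 with vehicle. The groups overlapped and the difference was 0.07 (95% interval -0.16 to 0.30, adjusted p = 0.856). The pan-endothelial members Eng (0.19), Emcn (0.04), Cd34 (0.14), Cd93 (0.08), Robo4 (0.13) and Egfl7 (0.10) also had effects that were not called. The intervals of Nos3, endothelial nitric oxide synthase (-0.51 to -0.03), and of Plvap, the diaphragm protein of fenestrae (0.04 to 0.60), did not contain 0 but neither gene passed the adjustment (adjusted p = 0.256 for Nos3 and 0.246 for Plvap). The remaining 4 uncalled genes of this role, Icam2, Rasip1, Mmrn2 and Gpihbp1, had effects from -0.24 to 0.13.

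Of the 6 transcription factors 1 rose and 5 were not called in U87M2. Sox17, a SOX factor tied to arterial identity, had levels of 7.28, 7.43 and 7.09 with V-4084 and 6.55, 6.35 and 6.53 with vehicle. All V-4084 arrays were above all vehicle arrays and the difference was 0.79 (SE 0.12, 1.73-fold, adjusted p = 0.000176). Its relatives Sox18 (0.19, adjusted p = 0.546) and Sox7 (0.08, adjusted p = 0.801) were not called. Neither were the ETS factors Erg (-0.09) and Fli1 (0.12) or the blood and endothelial factor Tal1 (-0.09).

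Of the 5 junction genes 1 fell and 4 were not called in U87M2. Cldn5, the tight junction protein that seals endothelium, had 7.84, 7.54 and 7.73 with V-4084, against 8.81, 8.61 and 8.85 with vehicle. The groups were far apart, with a difference of -1.05 (SE 0.15, 2.08-fold lower, adjusted p = 8.81e-05). Cdh5, the adherens junction protein, had 10.28, 10.17 and 9.92 with V-4084 and 10.21, 10.16 and 10.15 with vehicle. The V-4084 arrays of Cdh5 enclosed the vehicle arrays, at a difference of -0.05 (95% interval -0.34 to 0.24, adjusted p = 0.926). Esam, an adhesion molecule of endothelial cell contacts, had a difference of -0.04. The gap junction genes of arterial endothelium Gja4 (0.26, adjusted p = 0.193) and Gja5 (0.31, adjusted p = 0.201) were not called.

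The tip cell genes Kcne3 and Esm1 gave unlike values. Kcne3, a potassium channel subunit used as a tip cell marker in mice, had 6.17, 5.55 and 5.96 with V-4084, against 7.33, 7.58 and 7.44 with vehicle. Every V-4084 array was over 1 log2 unit below every vehicle array, and the difference of -1.56 (SE 0.23, 2.95-fold lower, adjusted p = 0.000176) was the largest in size among the 37 members in U87M2. Esm1, the proteoglycan endocan, had 7.35, 7.51 and 7.34 with V-4084 and 6.39, 7.67 and 7.82 with vehicle. The first vehicle array was below all V-4084 arrays and the other vehicle arrays above them, and the difference was 0.10 (95% interval -0.61 to 0.82, adjusted p = 0.941). Without the first vehicle array the Esm1 difference was -0.35 (adjusted p = 0.819).

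**Figure D2:**
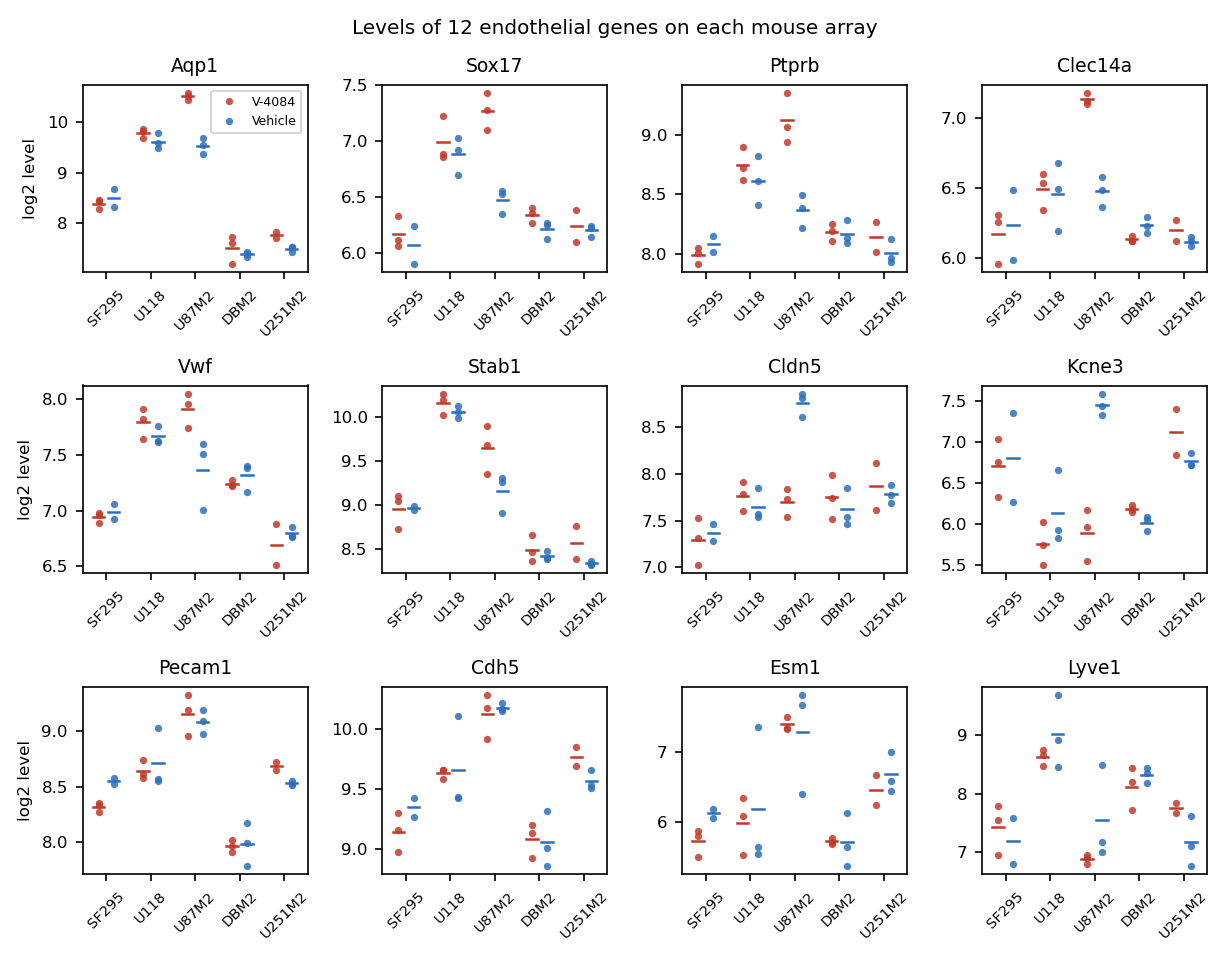
Log2 level of 12 members on every mouse array, by line, with V-4084 (red) left of vehicle (blue); points are arrays and dashes are group means. In U87M2 the V-4084 and vehicle points of Aqp1, Sox17, Ptprb, Clec14a, Vwf, Stab1, Cldn5 and Kcne3 do not overlap, whereas those of Pecam1, Cdh5 and Esm1 do.

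The lymphatic and sinusoidal genes were 1 called higher and 4 not called in U87M2. Stab1, a scavenger receptor of sinusoidal endothelium that some macrophages also carry, had 9.90, 9.69 and 9.36 with V-4084, against 9.30, 9.27 and 8.91 with vehicle. The lowest V-4084 array was just above the highest vehicle array, and the difference was 0.49 (SE 0.13, 1.40-fold, adjusted p = 0.0296). The Stab1 call was lost without the first V-4084 array (adjusted p = 0.213), the second V-4084 array (0.112) or the third vehicle array (0.201). The lymphatic members Lyve1, Prox1 and Mmrn1 were all higher on the second vehicle array than on the other arrays of the line. Lyve1 was 6.90, 6.81 and 6.96 with V-4084 and 7.18, 8.49 and 7.01 with vehicle, with a difference of -0.67 (adjusted p = 0.308). Prox1 was 5.57, 5.995 and 5.55 with V-4084 and 5.68, 6.66 and 5.95 with vehicle, with a difference of -0.39 (adjusted p = 0.330). Mmrn1, a multimerin of lymphatic endothelium and platelets, was 4.42, 4.52 and 4.38 with V-4084 and 4.62, 6.95 and 4.68 with vehicle. For Mmrn1 the second vehicle array alone stood high (difference -0.98, adjusted p = 0.470). Without that array the difference was -0.20 for Lyve1 and -0.11 for Prox1. Stab2, the other stabilin, differed by 0.04.

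In the last role neither Ackr1, the venular chemokine receptor DARC (-0.12), nor Sele, the E-selectin of cytokine-activated endothelium (-0.04), was called in U87M2.

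The same members were also expressed relative to the mean of 6 core endothelial genes on the same array (Pecam1, Cdh5, Esam, Egfl7, Clec14a and Robo4). That mean was 8.90, 8.78 and 8.57 with V-4084 and 8.64, 8.59 and 8.60 with vehicle in U87M2, and on this scale the median of all genes moved to -0.14. Clec14a, a called member, is 1 of the 6, so the scale carries part of that call: the mean effect in U87M2 was 0.14 over the 6 genes and 0.04 over the 5 without Clec14a. Kcne3 differed by -1.70 relative to the core (adjusted p = 4.1e-06), Cldn5 by -1.20 (1.19e-05), Aqp1 by 0.84 (0.00043), Sox17 by 0.65 (0.0092) and Ptprb by 0.62 (0.00296). Vwf (0.40, adjusted p = 0.204) and Stab1 (0.35, adjusted p = 0.220) were no longer called on this scale. Relative to the 5 core genes without Clec14a, an alternative added after the data were seen, the effects were -1.60 for Kcne3, -1.09 for Cldn5, 0.94 for Aqp1, 0.75 for Sox17, 0.72 for Ptprb and 0.61 for Clec14a, all called. Vwf (0.51, adjusted p = 0.137) and Stab1 (0.45, adjusted p = 0.139) were not called on that scale either.

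Markers of other host cells were read on the same U87M2 arrays, from lists of mouse genes. Of 12 macrophage markers 4 were called higher and 0 lower (2.49% and 1.22% of all genes). Among the 4 were C1qa, a complement subunit (0.64, adjusted p = 0.00906), and Csf1r, the receptor of macrophage colony-stimulating factor (0.52, adjusted p = 0.0213). Of the 8 not called, Cd68 (-0.25) and Cd163 (-0.03) were lower in value and the rest higher. The mean level of the macrophage list was 9.57, 9.32 and 9.10 with V-4084 and 9.002, 9.04 and 9.03 with vehicle, without overlap. With that mean as a covariate, an alternative added after the data were seen, 6 members were called in U87M2 and Stab1 (0.22, adjusted p = 0.530) and Vwf (0.45, adjusted p = 0.165) were not. Skeletal muscle markers had 0 of 15 called, all 15 lower in value (median effect -0.50), with a list mean of 6.47, 6.38 and 6.66 with V-4084 and 7.31, 7.50 and 6.65 with vehicle, and with that mean as a covariate the same 8 members were called. Pericyte and smooth muscle (14), fibroblast (10), adipocyte (9), platelet (5) and erythroid (4) markers had 0 called by limma, with 3, 5, 6, 0 and 0 of them at an unadjusted p under 0.05 in that order (14.9% of all genes in U87M2). All 10 fibroblast markers (median effect 0.44) and all 9 adipocyte markers (median effect 0.54) were higher in value with V-4084. The list mean of the fibroblast markers was 8.70, 9.26 and 9.12 with V-4084 and 8.44, 9.13 and 8.06 with vehicle. That of the adipocyte markers was 6.69, 7.62 and 7.56 with V-4084 and 7.09, 6.37 and 6.72 with vehicle, and in both lists the groups overlapped. In the other lines the smooth muscle gene Tagln was the only marker called, in U251M2 (0.95, adjusted p = 0.0448). Uncalled shifts were also seen there. In U118 9 of 15 skeletal muscle markers (median -1.67) and 6 of 9 adipocyte markers (median 0.66) had an unadjusted p under 0.05 (6.8% of all genes). In U251M2 6 of 14 pericyte and smooth muscle and 4 of 10 fibroblast markers did (13.4% of all genes). The part of any of these host cells, macrophages and muscle included, in the endothelial results was not tested. In U87M2 the macrophage list mean did not overlap between treatments, so its covariate cannot be separated from the treatment there.

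In the other lines no member was called, and few genes of any kind were. In SF295 0 of 37 were called (0.01% of all genes), 3 members had an unadjusted p under 0.05 (6.73% of all genes), and the median effect was -0.08 against -0.01 over all genes. The smallest p in SF295 belonged to Mmrn2, a multimerin of the vessel wall, with levels of 7.97, 8.15 and 7.84 with V-4084 and 8.49 and 8.37 with vehicle. These arrays did not overlap, at a difference of -0.44 (SE 0.14, adjusted p = 0.671). Next came Gja4 (-0.31, adjusted p = 0.722) and Egfl7, a secreted endothelial matrix protein (-0.24, adjusted p = 0.736). V-4084 arrays lay below vehicle arrays for 8 members in SF295 and above for 0, against 9.92% below and 5.71% above over all genes, which were SF295 groups of 3 and 2 arrays.

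In U118 0 of 37 were called (0.01% of all genes) and 0 members had an unadjusted p under 0.05 (6.8% of all genes), with a median of -0.02 against 0.02 over all genes. Kcne3 had 5.74, 5.50 and 6.03 with V-4084 and 5.83, 6.66 and 5.92 with vehicle in U118. These overlapped, and the difference was -0.38 (adjusted p = 0.802). Cd93, a C-type lectin-like receptor of sprouting endothelium (-0.26, adjusted p = 0.809), and Aqp1 (0.18, adjusted p = 0.818) came next. The high second vehicle array of U118 read 10.30 for Cd93, against 9.65 and 9.64 on the other vehicle arrays. Without that array the U118 effect was -0.12 for Kcne3, -0.04 for Cd93 and 0.26 for Aqp1, none of them called.

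In DBM2 0 of 37 were called (0% of all genes) and 1 member had an unadjusted p under 0.05 (2.3% of all genes), with a median of 0.01 against 0.01 over all genes. Rasip1, a Ras-interacting protein needed to open vessel lumens, had 7.22, 7.04 and 7.07 with V-4084 and 6.92, 6.96 and 6.81 with vehicle. The arrays did not overlap, but the difference of 0.21 did not pass (SE 0.10, adjusted p = 1.00). Sele (-0.12) and Cd34, the sialomucin of capillary and progenitor cells (-0.24), followed.

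In U251M2 0 of 37 were called (0.0401% of all genes) and 4 members had an unadjusted p under 0.05 (13.4% of all genes), with a median of 0.10 against -0.04 over all genes. Tal1 had 7.13 and 7.13 with V-4084, against 7.68, 7.57 and 7.28 with vehicle. No array overlapped, and the difference was -0.38 (SE 0.14, adjusted p = 0.285). Esam (0.35, adjusted p = 0.315) and Eng, the TGF-beta co-receptor endoglin (0.29, adjusted p = 0.344), were higher in value without passing. V-4084 arrays lay above vehicle arrays for 9 members and below for 2, against 11.1% above and 22% below over all genes, which were groups of 2 and 3 arrays.

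The effects were then set against each other across lines. The F test asking whether the 5 effects were unequal called 3 of the 37 members (0.341% of all genes), which were Aqp1 (limma adjusted p = 0.0116), Cldn5 (0.0116) and Kcne3 (0.0207). Ptprb came next (0.0569) and was not called. The effect on Aqp1 was 0.98 in U87M2, 0.27 in U251M2, 0.18 in U118, 0.13 in DBM2 and -0.11 in SF295. The effect on Cldn5 was -1.05 in U87M2 and between -0.08 and 0.13 in the other 4 lines. That on Kcne3 was -1.56 in U87M2 and between -0.38 and 0.35 in the other 4. The F calls could be lost when 1 array was left out, which also leaves fewer arrays in its group. Without the first U87M2 vehicle array 0 members were called (Aqp1 adjusted p = 0.0547), and 0 without the second U87M2 V-4084 array (0.0532). Without the third U87M2 vehicle array 1 was called, Aqp1. Over the 28 fits the call was kept in 25 for Aqp1, 25 for Cldn5 and 24 for Kcne3.

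The U87M2 effect minus the mean of the other 4 effects was called for 7 members (1.63% of all genes). It was 0.87 (SE 0.13) for Aqp1, 0.71 (SE 0.13) for Ptprb, 0.70 (SE 0.13) for Sox17, 0.66 (SE 0.13) for Clec14a and 0.57 (SE 0.14) for Vwf. It was -1.12 (SE 0.16) for Cldn5 and -1.57 (SE 0.26) for Kcne3. U87M2 was singled out for this contrast because its calls were known.

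**Figure D3:**
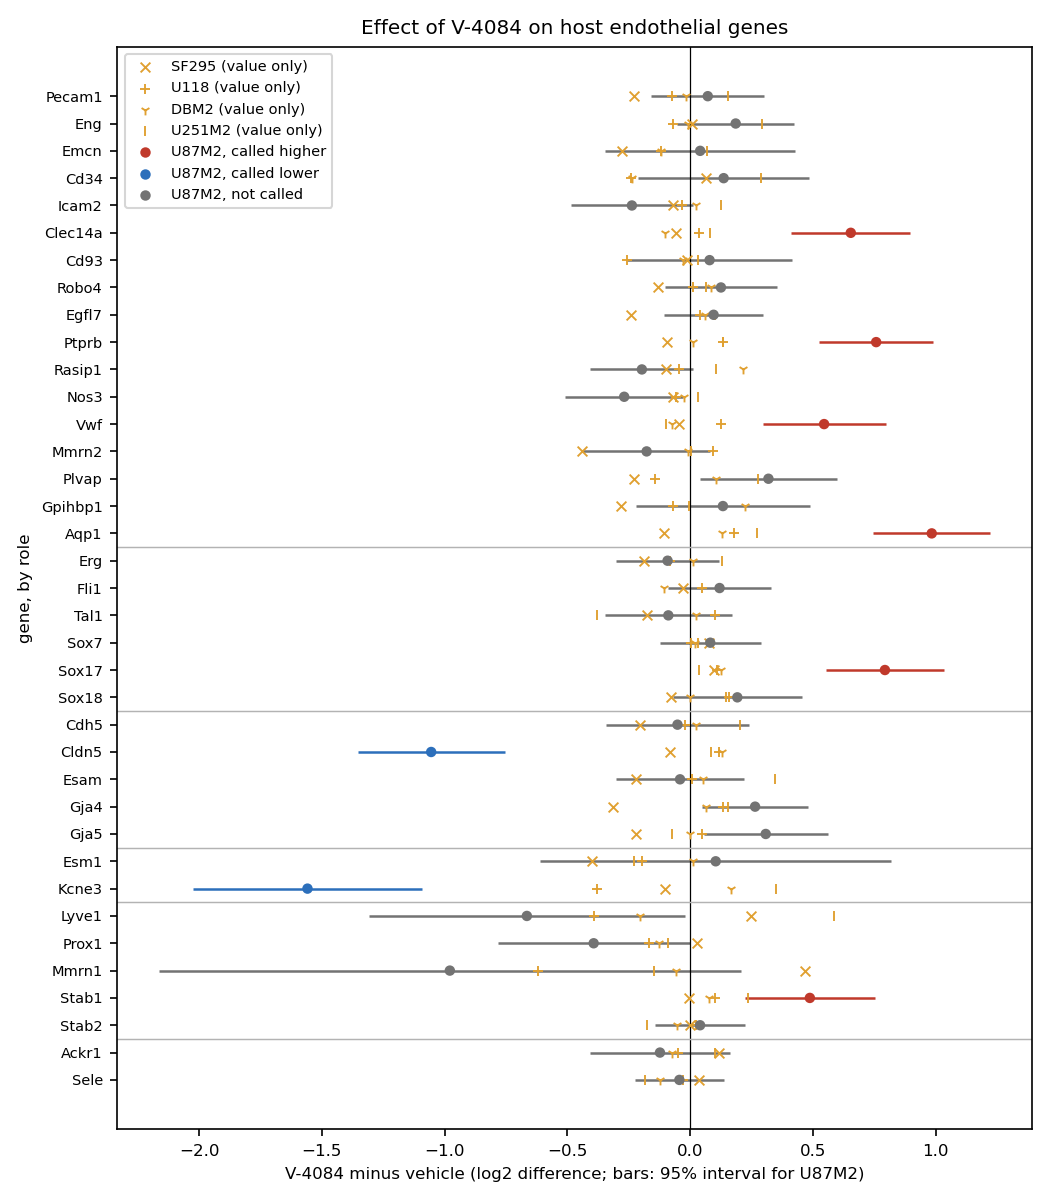
Effect of V-4084 (V-4084 minus vehicle, log2, horizontal axis) on each of the 37 members, by role. Dots and bars are the U87M2 estimate and its 95% interval, red where called higher, blue where called lower and grey where not called; orange marks are the estimates in the other 4 lines. The 8 called U87M2 dots lie outside the orange marks of their rows, and Pecam1 and Cdh5 lie among them.

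Averaged over the 5 lines with equal weight, 1 of the 37 members was called (0.0702% of all genes), with 7 at an unadjusted p under 0.05 (9.64% of all genes). Aqp1 was higher by 0.29 (SE 0.05, adjusted p = 0.0369). Sox17 (0.23, adjusted p = 0.107), Ptprb (0.19, 0.196), Stab1 (0.18, 0.316), Kcne3 (-0.30, 0.325) and Cldn5 (-0.16, 0.428) followed without passing. An exact two-sided permutation test within lines gave an unadjusted p = 0.00497 for Aqp1 over 800000 rearrangements. It gave 0.00666 for Sox17 and 0.022 for Ptprb, and from 0.101 to 0.890 for Pecam1, Cdh5, Esm1, Kcne3, Lyve1 and Prox1. These permutations used the same arrays, and Aqp1 had the smallest limma p among the members, so they are not separate support. The sign for Sox17 was positive in all 5 lines, with effects from 0.04 to 0.79. Outside U87M2 the Sox17 effects reached 0.13 at most and were not called. Sox7 was also positive in all 5 lines, from 0.003 to 0.08, and was called in none. Without U87M2 the Aqp1 average was 0.12 (adjusted p = 0.894) and 0 members were called, so the call on the average rests on that line. It was also lost in 15 of the 28 fits that left out 1 array. The averages of Pecam1 and Cdh5 were -0.02 and -0.01 over the 5 lines.

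Vehicle tumours of the 5 lines differed in their endothelial genes before any treatment effect. Vehicle levels differed for 35 of the 37 members (54.3% of all genes), and Gja5 (adjusted p = 0.0658) and Mmrn1 (0.351) were not called. U87M2 had the highest vehicle mean for 23 members (21% of all genes) and the lowest for 0 (15% of all genes). DBM2 had the lowest mean for 18 members (14.3% of all genes), and U118 the highest for 8 (13.6% of all genes). These ranks are of means, and most steps to the next line were not called. By the pairwise test U87M2 was above the next line for 9 of its 23 members and U118 for 3 of its 8. DBM2 was below the next line for 5 of its 18. In the pair U87M2 minus DBM2, 24 members were higher and 0 lower (4.65% and 4.7% of all genes), with a median of 0.49 against 0.01 over all genes. In U87M2 minus U251M2, 12 were higher and 0 lower (2.57% and 2.99% of all genes), with a median of 0.36 against -0.02 over all genes. In U118 minus DBM2, 19 were higher and 1 lower (12.8% and 13.9% of all genes). In SF295 minus U87M2, 1 was higher and 21 lower (15.5% and 20.7% of all genes), and in U118 minus U87M2, 4 were higher and 16 lower (13.7% and 17.3% of all genes).

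Pecam1 ranked U87M2, U118, SF295, U251M2, DBM2, with vehicle means of 9.09 ± 0.11 in U87M2, 8.72 ± 0.27 in U118, 8.55 ± 0.04 in SF295, 8.53 ± 0.02 in U251M2 and 7.99 ± 0.19 in DBM2 (SD, n = 3, for SF295 n = 2). The U118, SF295 and U251M2 neighbours did not differ by the pairwise test, while the top and bottom steps did (F test over lines, limma adjusted p = 6.67e-07). Cdh5 put the same lines first and last, at 10.17 ± 0.04 in U87M2 and 9.06 ± 0.23 in DBM2. Esam ran from 8.995 ± 0.12 in U87M2 to 7.67 ± 0.21 in DBM2, a span of 2.51-fold. The U118 values carry the high second array, at 9.03 for Pecam1 against 8.56 and 8.57 on the others, and without it 33 members still differed between lines.

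Cldn5 and Gpihbp1, the capillary anchor of lipoprotein lipase, were highest in U87M2, and the step from U87M2 to the next line was the only called step between neighbours in their order. Vehicle Cldn5 was 8.81, 8.61 and 8.85 in U87M2, and its means in the other lines lay from 7.37 in SF295 to 7.78 in U251M2. With V-4084 the Cldn5 levels of U87M2 (7.54 to 7.84) fell among the vehicle arrays of the other lines, which ran from 7.28 to 7.88. Vehicle Gpihbp1 was 9.24, 8.69 and 8.95 in U87M2, and its lowest mean was 7.41 in SF295. Kcne3 was highest in U87M2 vehicle tumours at 7.45 ± 0.13 and lowest in DBM2 at 6.02 ± 0.09, and the SF295 vehicle arrays lay far apart at 7.35 and 6.27. For Cldn5 and Kcne3 the high U87M2 vehicle level and the fall with V-4084 share the same vehicle arrays. They are therefore not separate results.

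Aqp1 and Stab1 followed another order. Vehicle Aqp1 was 9.62 ± 0.15 in U118 and 9.53 ± 0.16 in U87M2, which did not differ, then 8.49 in SF295, and 7.48 ± 0.06 in U251M2 and 7.37 ± 0.06 in DBM2, which did not differ. The span was 4.76-fold (adjusted p = 6.87e-14), the smallest p among the members. Stab1 ran from 10.06 ± 0.07 in U118 to 8.34 ± 0.02 in U251M2, a span of 3.30-fold (adjusted p = 1.02e-09). The macrophage list means in vehicle tumours were 9.91 in SF295, 9.80 in U118, 9.02 in U87M2, 8.80 in U251M2 and 8.69 in DBM2. The Stab1 mean of SF295 was 8.96, and the step to it from U87M2 (9.16) was not called. The part of macrophages in the Stab1 levels was not tested. The lymphatic genes Lyve1 and Prox1 ranked differently again, and not alike. Lyve1 was highest in U118 at 9.02 ± 0.62, whereas Prox1 was highest in DBM2 at 6.62 ± 0.23 and lowest in U118. No step between neighbours in their orders was called.

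**Figure D4:**
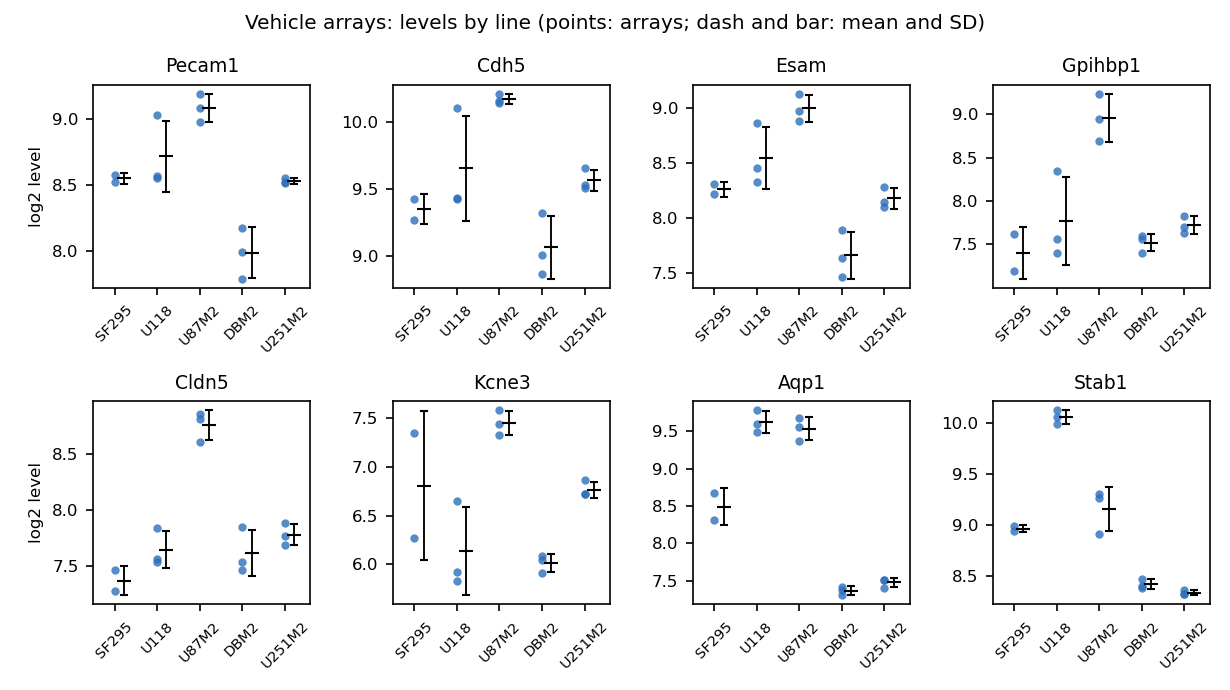
Log2 level of 8 members on the vehicle arrays of each line; points are arrays and the dash and bar are the mean and SD. U87M2 is highest for Pecam1, Cdh5, Esam, Gpihbp1, Cldn5 and Kcne3, DBM2 is lowest for Pecam1, Cdh5, Esam, Kcne3 and Aqp1, and U118 is highest for Aqp1 and Stab1.

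The wider vascular pathway was read on the same U87M2 arrays, in lists chosen with earlier results of these data known. Over all genes 2.49% were called higher and 1.22% lower in U87M2. The lists overlap, so their counts are not separate results. Apln and Angpt2 stand in both the VEGF and the tip cell list, Dll4 in the tip cell and the Notch list, and Vegfc in the VEGF and the lymphatic list. Of 15 genes of VEGF and angiopoietin signalling, 2 rose, 3 fell and 10 were not called. Apln, the ligand of the apelin receptor, had 7.88, 7.66 and 7.54 with V-4084, against 8.65, 9.41 and 9.21 with vehicle. It fell without overlap, by 1.40 (2.64-fold lower, adjusted p = 0.000116). Its receptor gene Aplnr had 9.21, 9.14 and 8.97 with V-4084 and 8.55, 7.92 and 8.45 with vehicle. The receptor rose without overlap, by 0.80 (1.74-fold, adjusted p = 0.000349). Angpt2, the destabilising ligand of Tie2, fell by 1.13 (adjusted p = 0.00496), and Tek, which encodes Tie2, rose by 0.43 (adjusted p = 0.0317). Vegfa fell by 0.67 (adjusted p = 0.000935), and its receptors Kdr (0.36, adjusted p = 0.061) and Flt1 (-0.39, adjusted p = 0.071) were not called.

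Of 8 tip cell genes outside the members, 3 fell (Apln, Angpt2 and Nid2, a basement membrane nidogen, -0.56), 1 rose (Cxcr4, a chemokine receptor, 0.55) and 4 were not called. The mean level of these 8 genes was 7.86, 7.73 and 7.55 with V-4084 and 8.04, 8.24 and 8.22 with vehicle in U87M2. Of 10 Notch and arterial genes 2 rose, Hey1, a Notch target (0.88, adjusted p = 0.00031), and Notch1 (0.33, adjusted p = 0.0457), and Dll4, the tip cell Notch ligand, had -0.29 (adjusted p = 0.374). Of 26 other endothelial genes, some of which also stand in the VEGF list, Cyyr1 (1.04) and Tek rose and Apold1 (-0.50) fell. Of 10 other junction and adhesion genes 1 rose, Vcam1, the leukocyte adhesion molecule (1.06, adjusted p = 0.002). Of 6 other lymphatic genes 0 were called by limma, with 2 at an unadjusted p under 0.05 (14.9% of all genes). The 5 effects differed between lines for Aplnr (F test adjusted p = 0.0242), Hey1 (0.017) and Cyyr1 (0.0124). In the other 4 lines none of the genes in these vascular lists was called.

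**Figure D5:**
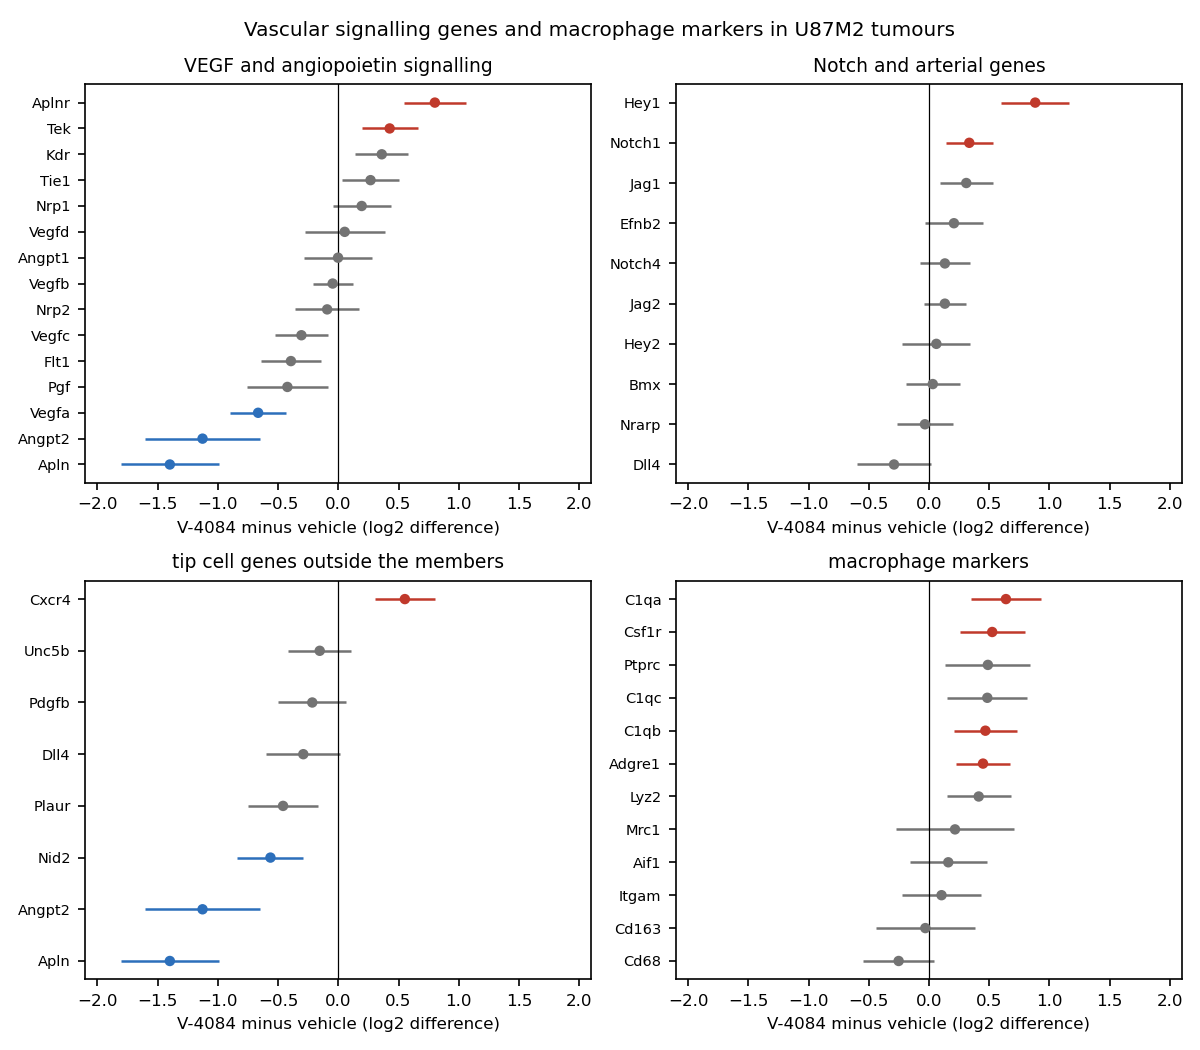
Effect of V-4084 in U87M2 tumours (V-4084 minus vehicle, log2) on mouse genes of 4 lists, with 95% intervals, red where called higher, blue where called lower and grey where not called. Apln, Angpt2, Vegfa and Nid2 lie below 0, Aplnr, Tek, Hey1, Notch1, Cxcr4 and 4 macrophage markers lie above.

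Human tumour cells share the tumour with the mouse vessels, and whether human RNA reached the mouse probes was not tested. The human counterparts were therefore read on the human arrays, labelled as cultured cells, for 38 genes. In U87M2 cells 2 were called (15% of all human genes), EMCN higher by 1.07 (adjusted p = 7.81e-06) and PECAM1 lower, at -0.87 (adjusted p = 0.000904). EMCN read 7.08, 7.11 and 7.12 with V-4084 and 6.13, 6.10 and 5.86 with vehicle, while mouse Emcn had an effect of 0.04 in the tumours. None of the human counterparts of the 8 called mouse genes was called in U87M2 cells. Their human effects were 0.34 for AQP1, 0.06 for CLDN5, 0.16 for KCNE3, 0.22 for SOX17, 0.21 for PTPRB, 0.23 for CLEC14A, 0.13 for VWF and 0.16 for STAB1. In the cells of the other lines limma called 0 counterparts, against 0.755% of all human genes called in U118 and 0% in SF295, DBM2 and U251M2. At an unadjusted p under 0.05 there were 4 counterparts in SF295 (8.58% of all human genes), 5 in U118 (10.1%), 9 in DBM2 (26.7%) and 1 in U251M2 (6.03%). On the average of the 5 lines 2 were called (11.6% of all human genes), EMCN (0.33) and CD34 (0.18).

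Human AQP1 in vehicle cells was 10.37 ± 0.28 in U118 and 9.32 ± 0.26 in U251M2 and between 6.28 and 6.51 in the other lines, while mouse Aqp1 was high in U118 and U87M2 and low in U251M2. For the wider vascular genes in U87M2 cells, VEGFA (-1.46) and APLN (-0.92) fell and HEY1 (1.74) and VCAM1 (1.24) rose, in the same direction as in the mouse data. NID2 (1.09) and APOLD1 (0.82) rose and TEK (-0.48) fell in human cells, opposite to the mouse genes. ANGPT2 (0.25), APLNR (0.29) and CXCR4 (0.26) were not called in human cells. Of these human arrays 3 carry titles of DBM2 with V-4084 and other fields of SF295, and were placed with DBM2; they enter the average over lines and not the U87M2 effects, except through the shared estimate of the spread.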

How the data were processed

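The authors' deposited values are log2 probe-set intensities from Affymetrix whole-transcript arrays (200 ng of RNA each), made with RMA and Partek per the submitters' processing notes, with no version given in the sources used. Values were used as deposited. Probe sets naming several genes (1621 on the mouse platform) or none (12146) were left out, and the probe set with the highest mean stood for a gene, which left 19938 mouse and 18417 human genes. Each of the 37 measured members had a single probe set. Arrays were grouped by title. limma 3.58.1 in R 4.3.3 fitted the 10 group means per platform (lmFit, eBayes without trend, 18 residual degrees of freedom). Contrasts were V-4084 minus vehicle per line, their equal-weight average, F tests between the 5 effects and between the vehicle groups, the 10 vehicle pairs, and U87M2 minus the other lines, each adjusted by Benjamini-Hochberg over all genes at 0.05. Test scripts were tested on simulated data. Precision is limited by the number of arrays.

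The members and lists were chosen with earlier results of these data known. Values are given for Pecam1, Cdh5, Esm1, Kcne3, Lyve1 and Prox1, the 6 members with the smallest p for the average, 3 for each line, 4 for differences between lines, 6 for vehicle levels and up to 4 genes of each other list; the remaining members called in U87M2 and other values were added. Same-numbered arrays of a line correlated at -0.349 to 0.297 over 13 pairs, 3 of them above 0.1, so numbers were not treated as pairs. Alternatives were a replicate block, quantile normalization, centring on array medians, leaving out dim genes, eBayes with trend, array weights, mean probe sets, single-line fits, muscle and (added later) macrophage covariates, scaling to 6 core genes or (added later) to the 5 without Clec14a, and leaving out U87M2 or each array.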

Additional observations from a re-analysis of the deposited data

Results flagged for a closer look

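The effect of V-4084 differed between the 5 lines for Aqp1 (F test, limma adjusted p = 0.0116), Cldn5 (0.0116) and Kcne3 (0.0207). The U87M2 effect minus the mean of the other 4 effects was 0.87 for Aqp1, 0.71 for Ptprb, 0.70 for Sox17, 0.66 for Clec14a, 0.57 for Vwf, -1.12 for Cldn5 and -1.57 for Kcne3 (log2), each at an adjusted p under 0.05 over all genes. All 7 also differed between V-4084 and vehicle within U87M2, so the difference between lines and the effect in U87M2 share those arrays.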

How the results depend on the processing

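In U87M2 6 to 8 members were called under every alternative run, and Aqp1, Cldn5, Ptprb and Sox17 were among them each time; Kcne3 and Clec14a were too, except where dim genes were left out and they were not tested. The 6 called after scaling to 6 core genes include Clec14a, itself a core gene and so not readable there (5 without it), and it was called after scaling to the other 5. Stab1 lost its call after centring on array medians (adjusted p = 0.0566), scaling to 6 or 5 core genes, the macrophage covariate and the single-line fit, and without 3 of the 6 U87M2 arrays; Vwf lost it under all of those settings but the centring and without 2 of those arrays. SF295, U118, DBM2 and U251M2 gave 0 throughout. The average call fell to 0 with the replicate block, centring, array weights, either core scaling, the macrophage covariate or no U87M2, ranged from 0 to 1 with an array left out (0 in 15 of 28), and passed to Sox17 under quantile normalization. Differences between lines numbered 0 with the replicate block, the macrophage covariate or no U87M2, 5 with quantile normalization, 6 with array weights, and 0 to 5 with an array left out, with 0 without the first U87M2 vehicle array and 0 without the second V-4084 array of that line. Vehicle levels gave 25 to 35 members, and 30 to 35 with an array left out. Leaving U87M2 out gave averages of 0.000875 for Cdh5, 0.00917 for Kcne3 and 0.0591 for Lyve1. Signs also turned near 0 for Cdh5 averages (0.00255 centred, 0.0177 weighted), the Pecam1 average (0.0104 weighted), and in U87M2 for Cdh5 (0.00187 weighted), Esm1 (-0.0286 weighted, -0.0382 scaled to 6 core genes) and Pecam1 (-0.0853, macrophage covariate). With an array left out the averages ran from -0.0328 to 0.0358 for Cdh5, -0.164 to 0.00717 for Lyve1 and -0.0389 to 0.0117 for Pecam1, and the U87M2 effects from -0.131 to 0.0517 for Cdh5, -0.348 to 0.367 for Esm1 and -0.0127 to 0.171 for Pecam1. Over all genes the U87M2 calls numbered 741, and 1224 with array weights, 382 scaled to 6 core genes, 243 scaled to 5 and 218 with the macrophage covariate. Calls on the average numbered 14, and 33 with dim genes left out, 9 with mean probe sets or the muscle covariate, 5 after centring, 2 with either core scaling and 0 with the macrophage covariate or no U87M2. The F test called 68, and 208 with array weights, 138 with quantile normalization, 114 with dim genes left out, 19 with the replicate block or the macrophage covariate and 0 with no U87M2. The cause was not tested, except that fewer samples or genes enter where they are left out. Arrays per group, 2 or 3, limit all of this.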
